A study of Caenorhabditis elegans with 4 samples.

Results

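Chromosome II of the nematode Caenorhabditis elegans carried 1758 of the 9533 genomic regions (18.4%) that were called as bound by the tagged transcription factor MDL-1 in fed first-stage (L1) larvae. The members are all peaks that the deposited list places on chromosome II; no measured value chose them. They lay between bases 723 and 15269446 of genome build WS180. The centre was taken as 4.88 to 12.02 Mb, the left arm as the part below and the right arm as the part above. By the midpoint of each peak, 984 peaks fell in the centre, 396 in the left arm and 378 in the right arm.

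MDL-1 is a basic helix-loop-helix leucine zipper protein of the Mad type. It binds E-box DNA as a dimer with the Max-like partner MXL-1, and in the worm this pair is set against a related pair, MML-1 and MXL-2, in the control of lifespan. The autosomes of C. elegans have no single centromere. Their central parts are dense in genes and recombine little, whereas their arms are richer in repeats, recombine more and hold more heterochromatin.

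The mapping used 4 sequencing libraries, 2 of DNA recovered with a goat polyclonal anti-GFP antibody and 2 of input DNA, with replicates 1 and 2 of each. All came from hermaphrodites of the strain OP106 grown at 20 °C on E. coli HB101, which carries the unc-119 allele ed3 on chromosome III and the integrated array wgIs106. That array holds mdl-1::TY1::EGFP::FLAG and a rescuing unc-119(+), and precipitated and input samples share both it and the allele. The strain is 1 line made by bombardment, and worms were crosslinked whole, so the peaks pool all cells of the larva that make the fusion protein. The text of the precipitation protocol speaks of embryos, while each sample is labelled fed L1. Each peak has a first base, a last base and a q-value from the comparison of precipitated with input DNA. The list has no read count and no value per library, so depth is unknown and no value here has a replicate error. Strength below means -log10 of the deposited q-value, which is the authors' own value for each peak. Every deposited q-value was below 0.01, so the lowest strength possible is just above 2.

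Chromosome II was densely occupied for an autosome, and its peaks were mostly narrow and of ordinary strength. It held 115 peaks per Mb (95% exact Poisson interval 109.8 to 121), against 99.7 per Mb (97.3 to 102) on the other 4 autosomes together. It took 20.8% of autosomal peaks on 18.5% of the autosomal span. The ratio of densities was 1.15 (95% exact interval 1.09 to 1.22). Against single autosomes it was 1.30 for V, 1.24 for IV and 1.14 for I, while III was denser than II (ratio 0.93, interval 0.869 to 0.994). These intervals cover counting error only and take peaks as independent, which clustered peaks are not. A comparison of 1 chromosome with 4 has too few units to test, so II is described here as the second densest of 5 autosomes. Peaks covered 3.48% of II, against 3.33% of the other 4 autosomes, so the higher number of peaks came with little more covered sequence.

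The median strength on II was 5.07 (95% order-statistic interval 4.86 to 5.39, quartiles 2.98 and 10.9), against 4.99 (4.83 to 5.18) on the other 4 autosomes. Of the peaks on II, 27.4% exceeded a strength of 10 and 25.1% lay below 3. The same shares were 27.6% and 26.9% on the other autosomes. Strengths above 100 were reached by 14 peaks of II, or 0.92 per Mb, against 0.82 per Mb on the other 4 autosomes. The density of II relative to the other autosomes was 1.06 (0.953 to 1.18) in the weakest of 4 equally filled strength classes of the whole list, 1.23 (1.11 to 1.37) and 1.19 (1.07 to 1.33) in the next ones and 1.13 (1.02 to 1.26) in the strongest. The ratio was above 1 in each class and lowest in the weakest, so by these values the surplus of peaks on II was not limited to weak peaks. The intervals take peaks as independent, whereas counts in 500 kb windows of II had a variance of 4.44 times the mean. Whether the ratios differ from 1 or between classes was not tested. The intervals of the 4 classes overlap.

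Along the chromosome the peaks formed a broad plateau beside a sparser and uneven left arm, and the 2 arms were unlike each other. Density was lowest at 10 to 15% of the span, with 39.3 peaks per Mb, while the first 5% held 99.5 per Mb. The centre held 138 peaks per Mb (129 to 147), the left arm 81.2 (73.4 to 89.6) and the right arm 116 (105 to 129). The centre was thus 1.70 times as dense as the left arm (1.51 to 1.91) and 1.18 times as dense as the right arm (1.05 to 1.34). The left arm had 0.70 times the density of the right arm (0.604 to 0.805). In windows of 500 kb counted from base 1, the 14 windows inside the centre held 56 to 79 peaks (mean 68.9 ± 7.49, SD over windows), the 9 inside the left arm 21 to 53 (37.9 ± 11.0) and the 5 inside the right arm 50 to 63 (57.2 ± 5.17). Every centre window therefore lay above every left-arm window, while the right-arm windows overlapped both. Counts varied less from window to window in the centre, with a variance of 0.81 times the mean, than in the left arm, where it was 3.17 times the mean, and least in the 5 windows of the right arm, where it was 0.47 times the mean.

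**Figure D1:**
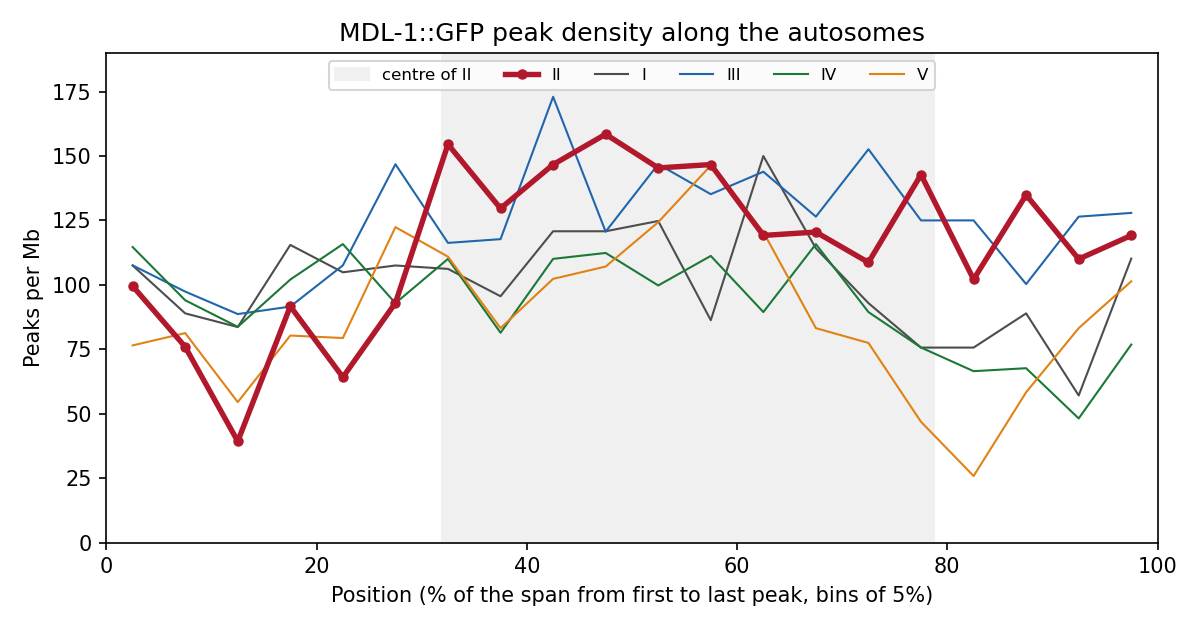
Peaks per Mb in 20 bins of each autosome, placed by percent of the span from first to last peak (horizontal axis), with chromosome II as the thick red line with points, the other 4 autosomes as thin lines and the centre of II shaded. On II the lowest bins lie in the left arm, density rises near the left edge of the shaded centre, and the right arm stays above 100 peaks per Mb.

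Divided at the same fractions of their own spans, the other autosomes had another order of arms. On II the left arm was the sparser one, whereas on V, IV and I the left part was denser than the right, with left to right ratios of 1.32 (1.15 to 1.53), 1.52 (1.31 to 1.78) and 1.20 (1.03 to 1.39). On III the ratio was 0.91 (0.794 to 1.05), on the same side of 1 as II but with an interval that included 1. The ratio of centre to left arm was 1.70 on II, and 1.06 on I, 1.29 on III, 0.98 on IV and 1.14 on V. The centre of II and that of III were alike in density, with 138 (129 to 147) and 138 (129 to 148) peaks per Mb. The left arm of II, with 81.2 peaks per Mb, was below the left parts of the other 4, which ran from 87.0 on V (80.02 to 94.3, overlapping the interval of II) to 107 on III. Sparse arms were not particular to II: the right parts of IV and V held 66.6 and 65.8 peaks per Mb, and their ratios of centre to right part were 1.49 and 1.51. The limits of II fall at 32.0% and 78.7% of its span, and the recombination domains of the other autosomes need not lie at these fractions.

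**Figure D2:**
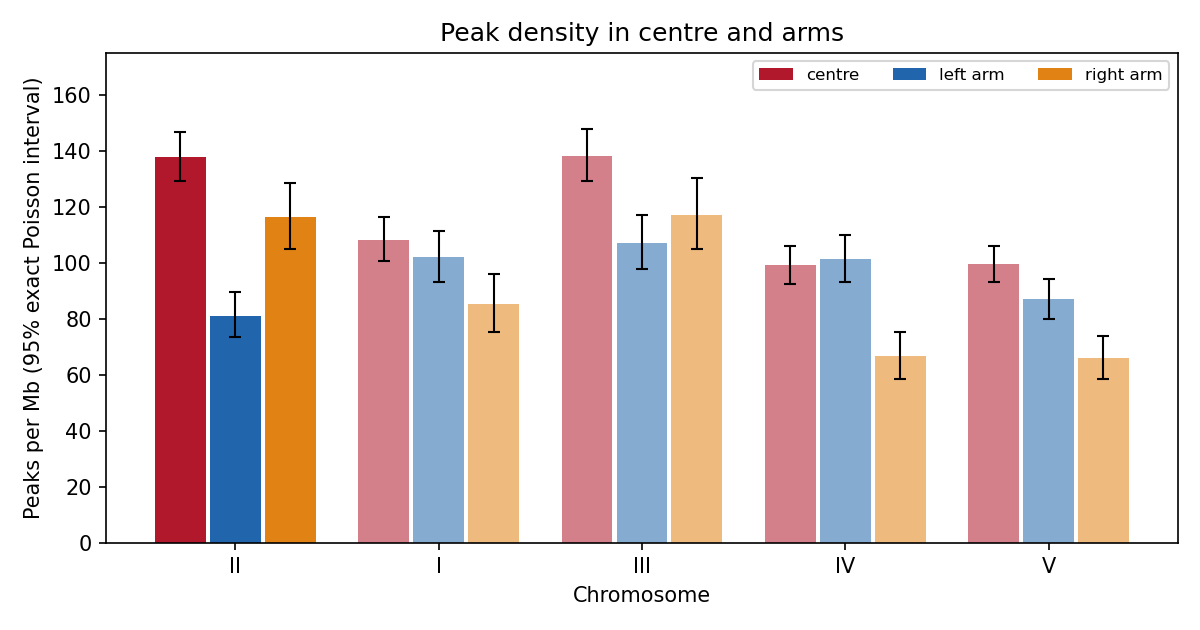
Peaks per Mb (vertical axis) in the centre, left arm and right arm of chromosome II and in the same fractions of the other autosomes (pale bars), with 95% exact Poisson intervals as error bars. Only on II and III is the left arm bar the lowest of the 3, and the intervals of left and right arm are apart on II.

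The change of density did not fall exactly at the left limit. The first 250 kb of the centre held 35 peaks and the next 250 kb held 47, or 188 per Mb. The last 250 kb of the left arm still held 40, or 160 per Mb. Going outwards from the limit, the further stretches of 250 kb in the left arm held 27, 12 and 33 peaks. The median strength was 8.47 in the first 250 kb of the centre and 3.81 in the last 250 kb of the arm. At the right limit the counts were alike, with 27 peaks in the last 250 kb of the centre and 32 in the first 250 kb of the right arm. The 3 stretches beyond that held 20, 23 and 37 peaks.

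The 3 densest windows lay in the centre, and the first 2 were neighbours. The windows from 6500001 to 7000000 and from 7000001 to 7500000 held 79 peaks each, and that from 8000001 to 8500000 held 76. They differed in strength, since the first had a median of 6.27 and 25 peaks above a strength of 10, and the second a median of 4.16 and 18 such peaks. The first was also the window of II with the most covered sequence, 6.0% of its bases. From 9000001 to 11500000 the windows held 56 to 64 peaks. The sparsest windows all lay in the left arm, from 1500001 to 2000000 with 21 peaks, from 2000001 to 2500000 with 27 and from 3000001 to 3500000 with 30. They had median strengths of 3.42, 3.75 and 4.0, and 0.89%, 1.17% and 1.56% of their bases were covered. Between the second and the third of them lay a dense window of the left arm, from 2500001 to 3000000, with 52 peaks, a median strength of 5.77 and 14 peaks above 10. The end of the left arm was also well occupied, with 53 peaks in its first 500 kb. Over the 30 full windows of II, number and median strength had a Spearman's rho of 0.43, given as a description since windows share 1 list and 1 unknown depth. Within zones it was 0.07 over the 14 centre windows, 0.64 over the 9 left-arm windows and 0.6 over the 5 right-arm windows.

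Empty stretches were most frequent in the left arm. On II 28 gaps between neighbouring peaks exceeded 50 kb, and together they took up 12.3% of its span. Of these gaps, 6 lay in the centre, 15 in the left arm and 7 in the right arm, taking 4.99%, 22.5% and 13.0% of each. The longest, of 135876 bp, ran from 1914375 to 2050250 and was followed closely by the third longest, of 89048 bp, from 2059347 to 2148394. The second longest, of 103516 bp, lay nearer the end, from 953480 to 1056995. The fourth, of 84946 bp, ran from 3304027 to 3388972. The fifth, of 83198 bp, was the only one of the 5 in the centre, from 9807748 to 9890945. Of the 10 peaks at the edges of these 5 stretches, the strongest reached 16.1 and the others stayed below 6. On the other autosomes gaps over 50 kb took 13.9% of I, 4.39% of III, 20.1% of IV and 25.1% of V. Gaps over 100 kb numbered 2 on II, against 1 on I, 0 on III, 9 on IV and 13 on V.

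The strength of peaks also differed between the arms. The median was 5.20 (4.93 to 5.60) in the centre, 4.17 (3.86 to 4.69) in the left arm and 5.66 (4.98 to 6.83) in the right arm. The intervals of the left arm and of the other zones do not overlap, whereas those of centre and right arm do. Arm parts of the other autosomes had medians from 4.02 on the right of V to 5.73 on the right of III. A weak arm was not particular to II, since the right of IV had 4.15. Peaks above a strength of 10 made up 28.4% of the centre (exact binomial interval 25.6 to 31.3), 20.7% of the left arm (16.8 to 25.04) and 32.0% of the right arm (27.3 to 37.0). Those below 3 made up 24.6%, 30.8% and 20.6%. The 90th percentile kept the order of the medians, with 24.7 in the centre, 19.1 in the left arm and 31.5 in the right arm, and so did the 95th, with 36.7, 27.3 and 43.7. The few peaks above a strength of 100 did not: the centre had 12 of them and each arm had 1.

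By strength class, the left arm was shorter of strong peaks than of weak ones. In the weakest of the 4 classes (strength 2.00 to 2.96) the centre had 32.9 peaks per Mb, the left arm 24.2 and the right arm 21.2. In the strongest class (strength 11.1 to 238) the centre had 34.3 per Mb, the left arm 15.0 and the right arm 33.5. The ratio of centre to left arm accordingly went up through the classes, from 1.36 (1.09 to 1.71) through 1.54 and 1.84 to 2.29 (1.76 to 3.02). The ratio of centre to right arm was 1.55 (1.18 to 2.06) in the weakest class, 1.09 (0.860 to 1.38) and 1.21 (0.956 to 1.55) in the next ones and 1.02 (0.813 to 1.29) in the strongest, with no steady trend. Its interval excluded 1 in the weakest class alone, whereas that of centre to left arm did so in all 4. Both intervals cover counting error only and are not tests.

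**Figure D3:**
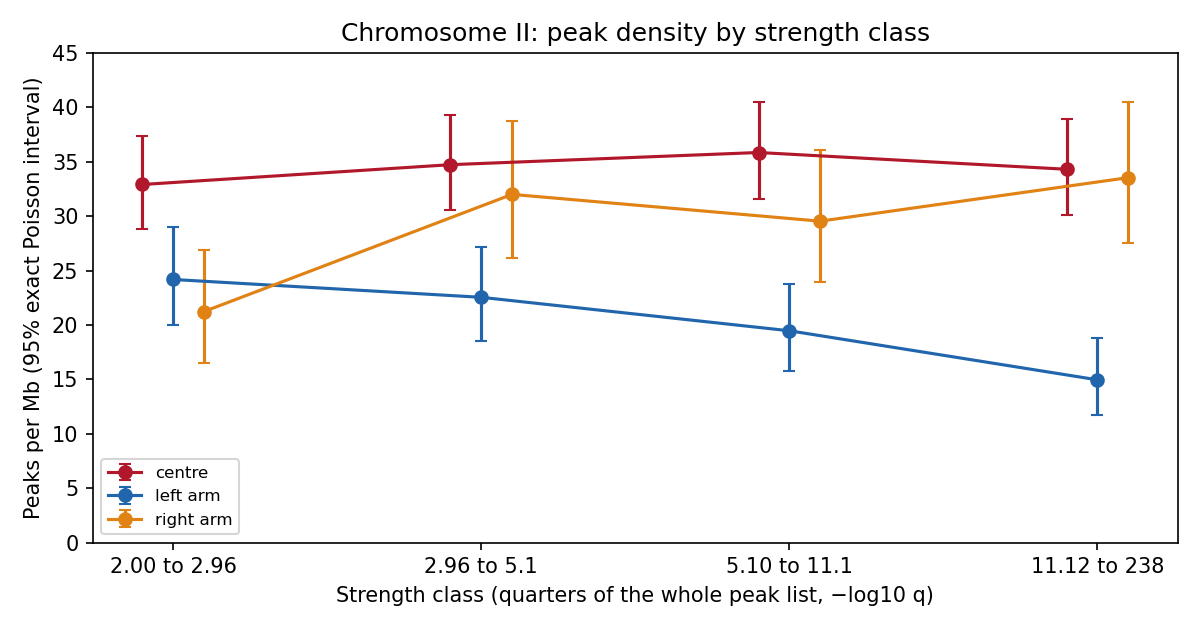
Peaks per Mb on chromosome II (vertical axis) by strength, in 4 equally filled classes of the whole list by -log10 q (horizontal axis), for the centre, left arm and right arm, with 95% exact Poisson intervals. The left arm declines from 24.2 to 15.0 per Mb across the classes while the right arm reaches 33.5, next to 34.3 in the centre.

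The strongest sites of II all lay in the centre. The first was the region from 8741812 to 8745964, second in the whole list with a strength of 211 and 4153 bp wide. The region from 9603264 to 9604424, 1161 bp wide, came next with a strength of 193.2, and that from 11634006 to 11636173, 2168 bp wide, had 193.1. Then followed regions from 10558196 to 10560002 with a strength of 174 and from 10544877 to 10549696 with a strength of 172. The sixth, from 10388003 to 10390852, reached 151. The seventh, from 8015426 to 8017167, reached 145, and the eighth, from 6890079 to 6892283, reached 137. The last of the 10 were the regions from 10550166 to 10552941 and from 9600947 to 9602215, with strengths of 129.8 and 128. All 10 were at least 1161 bp wide, and 8 had another peak within 1 kb. Chromosome II supplied 17 of the 100 strongest peaks of the list, near its share of 18.4% of all peaks.

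Some very strong peaks of II lay close together. Of the 14 peaks of II above a strength of 100, 5 lay within 172000 bp, from 10388003 to 10560002. On the other autosomes the most such peaks found within any 200 kb was 2 on I, 3 on III, 3 on IV and 2 on V, and III had 21 such peaks in all. The 3 on IV lay within 10031 bp, so close very strong peaks were not particular to II. Of the 5 on II, 3 belong to 1 group of 8 peaks with gaps under 1 kb, whose members are given with the largest groups. Whether they are separate sites was not tested. Counted as 1 region, they would bring the stretch down to the number found on III and on IV, where close peaks were not joined for this count. The stretch on II held 30 peaks, or 174 per Mb, of which 13 exceeded a strength of 10, and 24273 of its bases were covered. Both 500 kb windows that it touches were sparse for the centre, with 56 and 61 peaks. This stretch was picked out after its values were seen.

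Outside the centre the strongest peaks were narrower. The strongest of the right arm ran from 14039877 to 14040834, 958 bp wide, with a strength of 116 and rank 53 in the list. That of the left arm ran from 2973751 to 2974466, 716 bp wide, with a strength of 112 and rank 60, and it lay in the dense window of that arm described above. Each had several lesser peaks around it, 6 and 5 with midpoints within 5 kb.

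Wide regions were concentrated in the centre. Of the 32 peaks of II wider than 1000 bp, 29 lay in the centre, 1 in the left arm and 2 in the right arm, which is 2.95% (1.98 to 4.2), 0.25% (0.0064 to 1.40) and 0.53% (0.064 to 1.90) of the peaks of each. On the other autosomes, divided at the same fractions, arm parts ran from 1.43% on the left of I to 3.64% on the right of IV. Both arms of II lay below this range, though the interval of the right arm reached into it. The centre share of II was ordinary beside 2.23% on I, 2.81% on III, 2.85% on IV and 3.40% on V. Over whole chromosomes the share was 1.82% on II, against 2.61% on the other 4 autosomes. The widest region of II, 4820 bp, was the one from 10544877 to 10549696 named above, and the second was the strongest region. Another 5 of the 10 widest were among the very strong regions, those that start at 10388003, 10550166, 10445682, 6890079 and 11634006. The other 3 ran from 9059847 to 9062632 (2786 bp, strength 90.3), from 6346694 to 6349046 (2353 bp, strength 89.8) and from 9619954 to 9622130 (2177 bp, strength 59.4). Of the 10 widest and the 10 strongest peaks, 6 were the same. The widest of the right arm had 1289 bp (14249411 to 14250699, strength 75.8) and the widest of the left arm 1015 bp (4701201 to 4702215, strength 27.3).

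**Figure D4:**
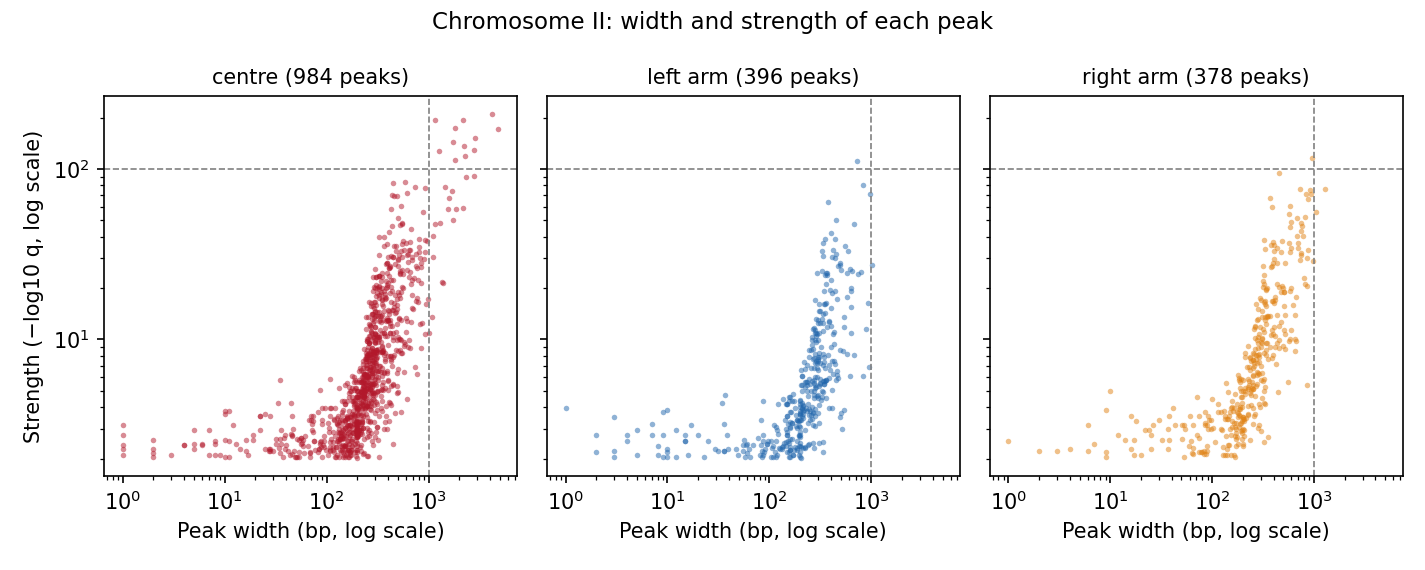
Width in bp (horizontal axis, log scale) against strength, -log10 q (vertical axis, log scale), for each peak in the centre, left arm and right arm of chromosome II, with dashed lines at 1000 bp and at a strength of 100. The upper right corner holds peaks of the centre only: wide and very strong regions were not found together in either arm.

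Typical peaks of II were narrow. The median width was 251.5 bp (245 to 260), against 279 bp (274 to 284) on the other 4 autosomes, the smallest median of the 5 autosomes, next to 260 bp (250 to 269) on III. Peaks under 50 bp made up 8.42% of II (7.16 to 9.82), against 6.05% (5.49 to 6.65) of the other autosomes. Relative to the span, II had 1.61 times as many peaks under 50 bp (1.32 to 1.94) and 1.38 times as many from 50 up to 200 bp (1.24 to 1.53). For the class of 200 to 400 bp it had 1.11 times as many (1.03 to 1.20). Between 400 and 800 bp it had 0.92 times as many (0.805 to 1.05), and above that 0.95 times (0.722 to 1.24). Against the other 4 autosomes together, the surplus of peaks on II was thus found in regions under 400 bp. Below 200 bp it was shared with III. Peaks under 50 bp numbered 9.69 per Mb on II and 9.30 on III, and those from 50 up to 200 bp 30.5 and 31.2. The same classes held 5.02 to 5.31 and 18.7 to 20.6 per Mb on I, IV and V. From 200 up to 400 bp II had 52.1 per Mb, near 50.9 on I and below 57.4 on III, against 42.6 on IV and 40.4 on V. The median strength of peaks under 50 bp was 2.53, near the threshold of the list, against 74.9 for peaks wider than 1000 bp. Peaks 1 bp wide numbered 7.

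The narrowness held at equal strength. In the weakest of the 4 strength classes the median peak of II was 119.5 bp wide, against 144 bp on the other autosomes. In the next classes it was 199.5 against 221 bp and 288 against 316 bp, and in the strongest class 436 against 463 bp. In proportion, the difference was thus largest in the weakest class and smallest in the strongest. Relative to peaks of like strength, in 20 equally filled classes of the list, peaks of II had 0.83 times the mean width on a log scale (mean log2 difference -0.27). That scale gives very narrow peaks much weight, and 0.83 is a mean over all strengths. Peaks of III had 0.87 times, and those of I, IV and V 1.03, 1.04 and 1.04 times. On II 29 of 30 windows of 500 kb lay below 0 on this measure, and on III 26 of 27, against 12 of 30 on I, 13 of 34 on IV and 11 of 41 on V. All zones of II shared it, with means of -0.20 in the centre, -0.30 in the left arm and -0.40 in the right arm. The window means of II ran from -0.59, from 11000001 to 11500000, to 0.09, from 7500001 to 8000000. How much of this rests on the authors' peak calling was not tested, since the list has no read profile. Width and strength had a Spearman's rho of 0.84 across the peaks of II, which share their libraries, against 0.79 on the other 4 autosomes.

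Close neighbours were about as common on II as on the other autosomes, and within II most common in its centre. A gap of at most 1 kb to another peak was found for 637 peaks (36.2%, 34.0 to 38.5), against 35.4% (34.2 to 36.5) on the other 4 autosomes. The share was 40.0% (37.0 to 43.2) in the centre, 25.5% (21.3 to 30.1) in the left arm and 37.6% (32.7 to 42.7) in the right arm. In the centre parts of the other autosomes it was 35.6% on I, 43.1% on III, 37.5% on IV and 36.1% on V. A higher density brings peaks closer, and the median gap was 3335.5 bp in the centre, 5726.5 bp in the left arm and 2911 bp in the right arm. The right arm, though less dense than the centre, had the shorter median gap. Gaps of up to 500 bp made up 11.9% of those in the centre and 7.96% of those in the right arm. No gap on II was shorter than 200 bp, and the shortest on each other autosome was 201 to 205 bp. Why the list holds no shorter gap was not tested. Peaks with a neighbour had a median strength of 5.65 (5.26 to 6.24), against 4.78 (4.38 to 5.04) for the 1121 without. The difference ran the same way in each zone, with medians of 5.54 and 5.03 in the centre, 5.32 and 4.02 in the left arm and 7.005 and 4.99 in the right arm.

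Joined at gaps of up to 1 kb, the peaks of II formed 1375 regions: 1121 single peaks, 181 pairs, 44 triples and 29 groups of 4 or more. Groups of 4 or more numbered 20 in the centre, 3 in the left arm and 6 in the right arm, or 2.80, 0.61 and 1.85 per Mb. II and III had 29 each, or 1.90 per Mb on II and 2.11 per Mb on III, against 0.93 on I, 1.03 on IV and 1.72 on V. Of the 73 groups of 3 or more on II, 35 had their strongest member inside and the others had it at an edge. The number that group sizes alone would give was not computed, so no preference is read from this count.

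The largest groups were of different kinds. The group with most members, 10 peaks over 8537 bp from 3951378 to 3959914, lay in the sparse left arm. It had 1 strong peak of 80.5 near its right end, and its other 9 members had strengths of 2.32 to 6.76. A group of 8 in the centre, from 10541858 to 10560002, was the opposite: all 8 members exceeded a strength of 10, with a weakest of 16.1 and a median of 63.0. Its peaks covered 82.3% of 18145 bp, with gaps of 292 to 883 bp, and 3 of them were among the 10 strongest of II. The strengths in order along the chromosome were 30.3, 21.3, 172, 129.8, 16.1, 78.0, 47.9 and 174, so the 2 highest were the third and the eighth, with weaker peaks between.

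Another group of 8 in the centre, over 5646 bp from 6825807 to 6831452, had no very strong peak, with a strongest member of 25.4 and a median of 7.61, above the median of 5.20 of all peaks in the centre. A group of 7, from 9600018 to 9607343, held the second strongest peak of II, of 193.2, and the last of its 10 strongest, of 128, with a peak of 6.75 between them and 4 others of 7.89 to 31.0. The fifth group, of 6 peaks from 13289569 to 13294820 in the right arm, had a strongest member of 71.3 flanked by peaks of 2.05 to 12.3. It was taken before the other groups of 6 for its strongest member. Whether the members of a group are separate binding sites or pieces of 1 enriched region cannot be told apart in this list.

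**Figure D5:**
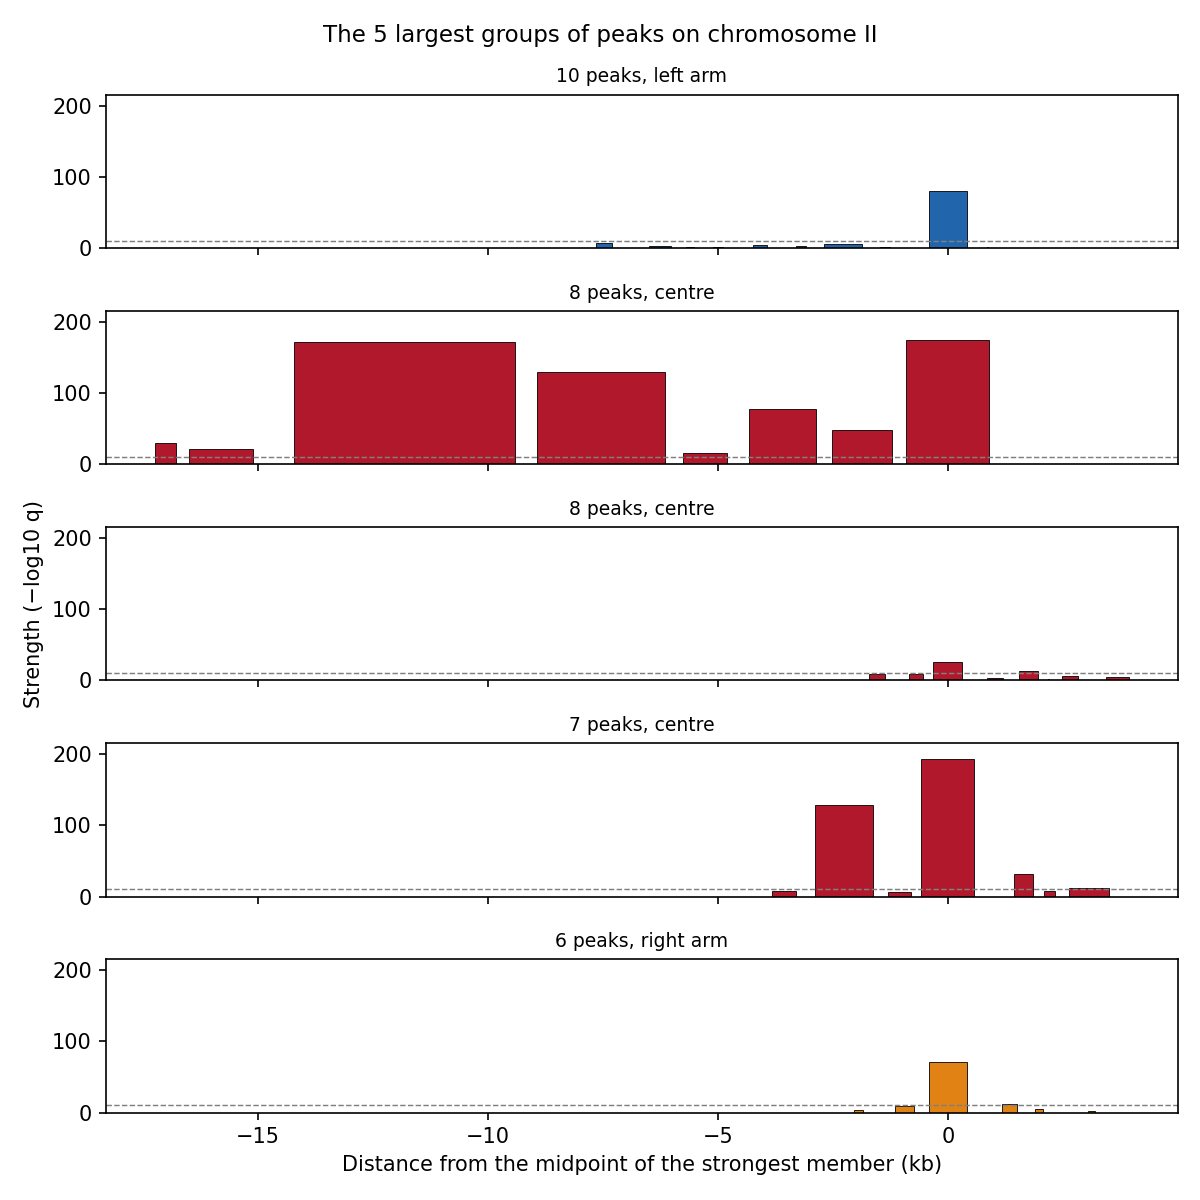
Strength (-log10 q, vertical axis) of the members of the 5 largest groups on chromosome II, each drawn as a bar as wide as the peak at its distance in kb from the midpoint of the strongest member (horizontal axis), with a dashed line at a strength of 10. In the second panel all 8 members exceed the dashed line, while in the first only the strongest member, at 80.5, does.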

How the data were processed

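One combined list of MDL-1::GFP binding regions was analysed. The authors called peaks with PeakSeq on the genome build WormBase WS180, per the file headers. Which aligner, PeakSeq version and read filters were used, and how the replicates were joined, is not given in the sources used here. The deposited values are the first and last base of each peak, counted from 1, and a q-value, the highest of which was 0.00991. Strength was computed as -log10 of the q-value and width as last minus first base plus 1. Gaps are the bases between neighbouring peaks. Chromosome lengths were not used: densities refer to the span from first to last peak.

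Intervals of 95% were exact Poisson for densities, exact conditional for ratios, Clopper-Pearson for shares and by order statistics for medians. They measure counting error alone, with each peak taken as independent. No significance test was run, since the list holds no replicates.

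Regions are named by rule: the 10 strongest and 10 widest peaks, 5 largest groups (neighbours within 1 kb), 5 longest empty stretches and 3 densest and 3 sparsest windows of 500 kb. Other regions named were picked after seeing their values. The members and lists were chosen with earlier results of these data known. The gene table at hand is of the build WBcel235, so no peak was given a gene or sequence. Functions were tested on simulated data. Software was Python 3.11.15 with scipy 1.17.1, numpy 2.4.6, matplotlib 3.10.9 and pandas 2.3.3.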

Additional observations from a re-analysis of the deposited data

How the results depend on the processing

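Of 44 recomputed values, 36 stayed within the 95% interval of the value reported. A change of direction could be counted only for the density ratios, whose reported intervals excluded 1, and none of these ratios changed direction. Shares and window densities have no direction, and the reported intervals of the differences in median included 0. With peaks above the median strength of the list only, the ratio of density was 2.04 for centre to left arm and 0.546 for left to right arm, the share with a neighbour within 1 kb was 26.2% and the share wider than 1000 bp 3.66%. A neighbour within 500 bp was found for 17.9% of peaks and within 2 kb for 55.9%. With peaks within 1 kb merged, 13.9% of regions were wider than 1000 bp. The density of II relative to other autosomes was 1.23 without chromosome III, which is the densest, and from 1.10 to 1.16 without each of the others. With the outer 25% of the span at each end as arms, the ratio of centre to right arm was 1.09 (0.972 to 1.22) and no longer excluded 1, as among above-median peaks (1.11, 0.944 to 1.32). The difference in median strength of centre minus both arms was 0.29 with the limits used and -0.45 with the outer 25%. The difference in median width likewise went from 6 to -2.5 bp. The intervals of these differences included 0 under both settings, and both settings pool 2 unlike arms. The densest 500 kb window had 158 peaks per Mb, or 178 with windows shifted by 250 kb. No paired analysis was possible because the list holds no value per library, and leaving out a replicate was impossible too. With unknown depth, the number of sites too weak for the list is not known either.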
